A study of Mus musculus with 8 samples.

Results

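Collagens and the matrix proteins that fibroblasts secrete around them were followed in macrophages selected from the fat of obese mice. The members were every gene of the deposited table whose symbol has the collagen form (Col, a number, the letter a, a number), which gave 41 collagens, and 19 named matrix and fibroblast genes. They made up 60 of the 15867 genes in the table, and all 60 had a mean of at least 10 normalized counts and were tested. The rule itself names genes and uses no measured value, but it was proposed with earlier results of these data known.

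Collagens are secreted proteins whose chains wind into a helix and assemble outside the cell into fibrils, sheet-like networks or beaded filaments. Small proteoglycans coat the fibrils, lysyl oxidases cross-link them, and elastin and fibrillin form a separate, stretchable set of fibres. In adipose tissue, fibroblasts and their Pdgfra-positive progenitors make most of the fibrillar collagen, vessel cells and adipocytes add basement membrane, and the matrix is known to thicken in obesity.

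The study measured poly(A) RNA of F4/80-selected macrophages from obese mouse adipose tissue after 20 weeks of high-fat diet. KO mice had the genotype Mirc11fl/fl Mirc22fl/fl Lyz2Cre/Cre and control mice the genotype Mirc11fl/fl Mirc22fl/fl Lyz2+/+, with 4 libraries of each, called KO 1 to KO 4 and control 1 to control 4 here. Both groups thus carried floxed alleles of 2 microRNA clusters, and Lyz2-driven Cre recombinase, active in myeloid cells, was present in KO mice only. The age and sex of the mice are not given in the labels, nor whether a library came from 1 mouse, so each p-value rests only on how far these samples scatter.

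Loss of the clusters, presence of Cre and loss of Lyz2 came together in the KO group, and no group with Cre alone was analysed, so they cannot be told apart. Lyz2, the lysozyme gene that the Cre allele replaces, had 174 to 273 normalized counts in KO libraries and 156727 to 204853 in control libraries, which fits the labels. The transcripts of the microRNA clusters were not used as a check here. Depth was 31789395 to 46621080 reads a library, recovered from the deposited values. Adgre1, which encodes F4/80, had 37440 to 43035 normalized counts in KO libraries and 39565 to 54126 in control libraries. Beside it stood Pdgfra, the receptor that marks fibroblasts and their progenitors. It had 2341 to 3617 normalized counts in KO libraries and 2114 to 3833 in control libraries. RNA of this fibroblast marker was thus present in both groups, and which cells it came from was not tested. In a bulk library, fewer cells of a type and less RNA per cell cannot be told apart.

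The matrix members were mostly a little higher in KO libraries than in control libraries, but no single one passed the main test. The difference of log2(normalized count + 1), KO minus control, was above 0 for 51 of the 60 members (85%), where 50.5% of all tested genes were above 0. Its median over the members was 0.32, a 1.24-fold difference, against 0.00 over all 15862 tested genes. Scaling each library to the same total moved the median of all genes to 0.06 and that of the members to 0.37. Members of the same library are not replicates, so these counts and medians describe the list and are no test of it.

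With limma and Benjamini-Hochberg adjustment over all tested genes, 0 of 60 members passed at an adjusted p under 0.05, where 3.61% of all tested genes did (1.24% higher and 2.38% lower in KO). Without adjustment 22 members had a p under 0.05, 21 of them higher and 1 lower in KO, which is 36.7% of the members beside 21.2% of all tested genes (10.8% higher and 10.4% lower). On reads recovered from the deposited values, edgeR's quasi-likelihood test also called 0 of 60 members (3.51% of all genes; 1.2% higher and 2.31% lower), with 21 at an unadjusted p under 0.05 (20.7% of all genes; 10.6% higher and 10.1% lower). DESeq2 on the same reads called 11 members, 10 higher and 1 lower, or 18.3% of the members where it called 10.9% of all genes with an adjusted p (4.66% higher and 6.23% lower). It gave no adjusted p for 5 low members.

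The 11 members that DESeq2 called were Col1a1, Col4a1, Col15a1, Col18a1, Col20a1, Bgn, Fbln2, Loxl2, Postn and Sparc on the higher side and Col24a1 on the lower side. The authors' deposited table, which gives DESeq2 values, called the same 11 (10.9% of all genes, with 4.65% higher and 6.23% lower in KO). Its sign was turned here, since its fold change is control over KO. The reads used here were recovered from the authors' own values, so this repeats the same test and is no independent result. The lowest adjusted p-values among the members in limma were 0.0800 for Sparc and 0.0820 for Postn. The groups did not overlap for 5 members. Every KO library lay above every control library for Bgn, Col20a1, Postn and Sparc, 6.67% of the members where 5.52% of all genes behaved so, and every KO library lay below every control library for Col24a1 (8.21% of all genes; 13.7% in either direction).

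As a share of all normalized counts, the 60 members took 1.39%, 1.24%, 1.59% and 1.60% in KO 1 to KO 4, against 1.19%, 1.10%, 1.09% and 0.832% in control 1 to control 4. In this share the groups did not overlap, with KO 2 the lowest of the KO libraries just above control 1, the highest of the control libraries. In the summed normalized count they overlapped, since KO 2 with 433296 lay below control 1 with 453089. The sum averaged 529296 ± 75399 in KO libraries and 397259 ± 53285 in control libraries (SD, n = 4 each). The 5 most abundant members held 46.8% to 50.5% of that sum in KO libraries and 43.6% to 48.7% in control libraries.

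**Figure D1:**
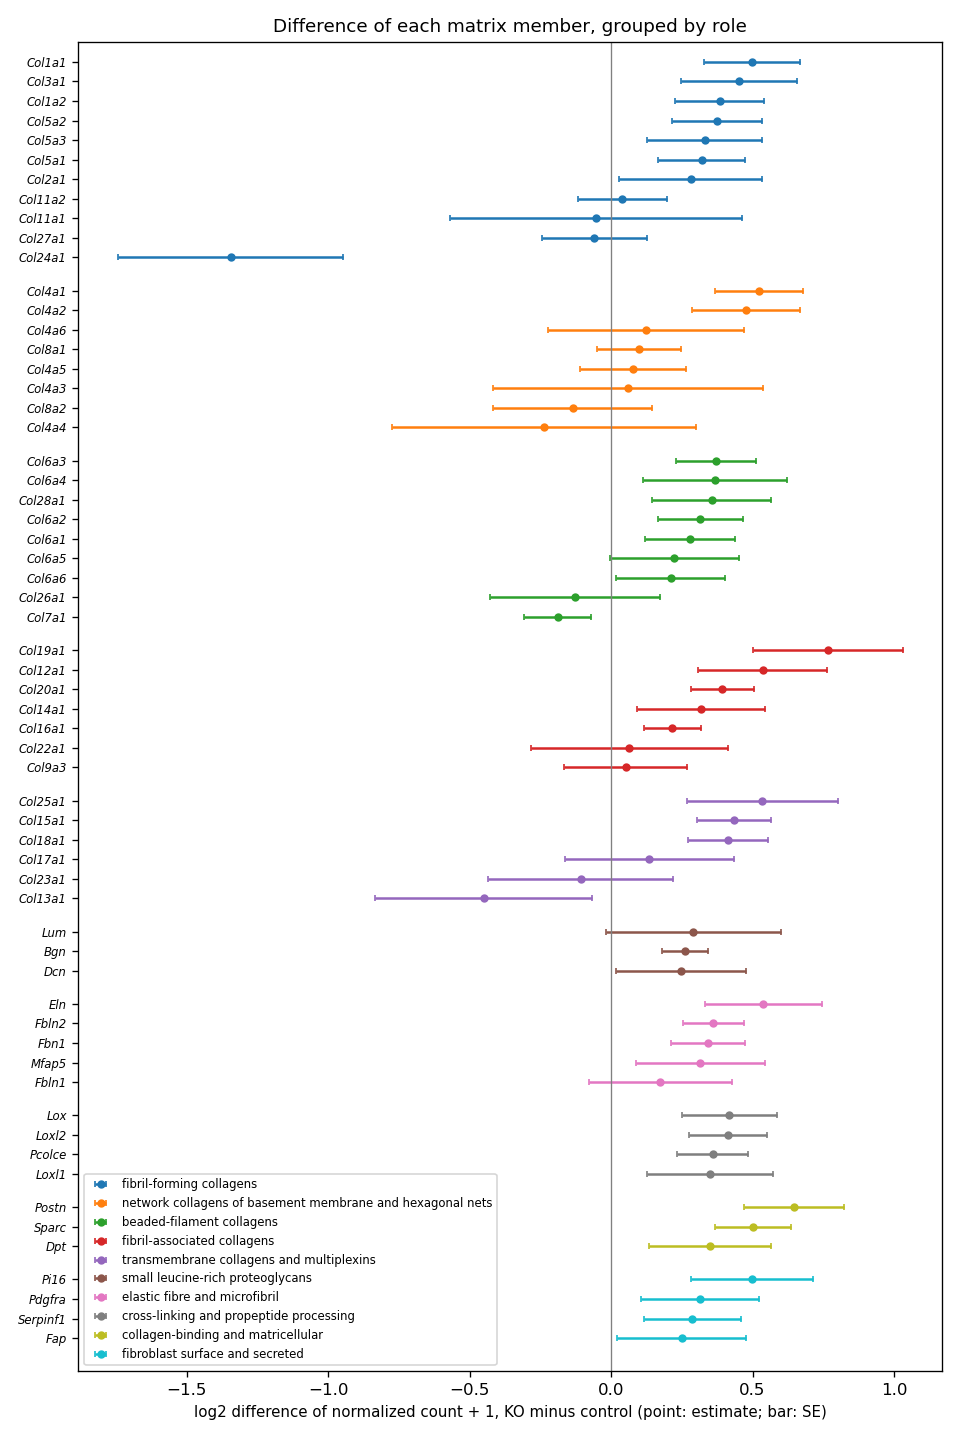
Difference of log2(normalized count + 1), KO minus control, for each of the 60 members in blocks by role, with the limma estimate as a point and its SE as a bar. Of the 60 points 51 lie right of 0, and Col24a1 at -1.35 lies farthest from it.

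Measured per length, as normalized counts per kilobase of the annotated transcript, the levels spanned a wide range. The highest was that of Sparc, with a mean of 19994 per kilobase in KO libraries and 14155 in control libraries. Col3a1 followed with 13558 per kilobase in KO libraries and 9868 in control libraries, then Dcn with 9799 in KO libraries and 8630 in control libraries, and Col4a1 with 9204 in KO libraries and 6351 in control libraries. The lowest was that of the cartilage collagen Col2a1, with 2.81 per kilobase in KO libraries and 2.25 in control libraries. Of the members, 14 had a mean of at least 10000 normalized counts and 12 had a mean under 100. For 4 further collagens placed in the role groups (Col9a1, Col9a2, Col10a1 and Col21a1) no value was analysed here.

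The fibril-forming collagens build the cross-striated fibres that give tissue its tensile strength. Of the 11 members of this group 8 had a positive difference and 3 a negative one, with a median of 0.32, and 0 passed in limma. Col1a1 (chr11:94936224-94953042, plus strand, GRCm38), the main chain of type I collagen, had 19131, 21671, 30588 and 26266 normalized counts in KO 1 to KO 4, against 20237, 16342, 18939 and 13342 in control 1 to control 4. KO 3 and KO 4 were the highest of all, and KO 1 lay below control 1, so the groups overlapped. Its log2 difference was 0.50 (SE 0.17), 1.41-fold, with an adjusted p of 0.142 in limma and 0.0325 in DESeq2.

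Col3a1 (chr1:45311538-45349706, plus strand), the chain of type III collagen, which forms thin reticular fibres, was the collagen with the highest level. It had 58995, 60307, 94319 and 88131 normalized counts in KO 1 to KO 4, against 70540, 50851, 56904 and 41317 in control 1 to control 4. Again KO 3 and KO 4 stood above the rest and control 1 lay above KO 1 and KO 2. limma gave a log2 difference of 0.45 (SE 0.21, adjusted p = 0.248 in limma).

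Col1a2, which supplies the other chain of type I collagen, averaged 32238 ± 6147 normalized counts in KO libraries and 24644 ± 4221 in control libraries. Its log2 difference was 0.38 (SE 0.16), close to that of Col1a1. The 3 chains of type V collagen, which sits inside type I fibrils and limits their width, had log2 differences of 0.32 for Col5a1, 0.37 for Col5a2 and 0.33 for Col5a3, which had 0.52 without KO 2. Their adjusted p-values in limma lay between 0.222 and 0.395.

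To ask whether the 2 chains of type I collagen kept their balance, the log2 ratio of Col1a1 to Col1a2 was compared within libraries, which does not depend on library scaling. The ratio averaged -0.40 ± 0.03 in KO libraries and -0.52 ± 0.07 in control libraries, with ranges of -0.45 to -0.37 and -0.57 to -0.42. The difference of 0.11 gave p = 0.0571 in an exact two-sided permutation test over 70 assignments, whose smallest p is 0.0286, and 0.114 after Benjamini-Hochberg adjustment over the 2 ratios tested. Control 3 had the highest ratio of the control libraries, and no other control ratio lay inside the KO range. Without it the difference was 0.15 and its exact p 0.0286, unadjusted. Leaving it out separated the groups, so this is the smallest p that the test can give there.

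Col24a1 (chr3:145292472-145552011, plus strand), a fibrillar collagen known from developing bone and cornea, was the member with the clearest difference in the other direction. It had 22, 28.6, 64.8 and 45.5 normalized counts in KO 1 to KO 4, against 181, 70.1, 70.5 and 92.8 in control 1 to control 4. All 4 KO libraries lay below all 4 control libraries, the nearest being KO 3 and control 2, and control 1 had the highest count by far. On the log2 scale the difference was -1.35 (SE 0.40), the largest in size of any member, with an adjusted p of 0.103 in limma, 0.118 in edgeR and 0.0220 in DESeq2. Without control 1 it was -1.04 (adjusted p = 0.178 in limma). For that reason its promoter window from RefSeq is shown, 250 bases before to 50 after the start at chr3:145292222-145292521 of GRCm38.p6, plus strand, with TGACGTCA, the palindromic cyclic AMP response element, in capitals.
Col24a1: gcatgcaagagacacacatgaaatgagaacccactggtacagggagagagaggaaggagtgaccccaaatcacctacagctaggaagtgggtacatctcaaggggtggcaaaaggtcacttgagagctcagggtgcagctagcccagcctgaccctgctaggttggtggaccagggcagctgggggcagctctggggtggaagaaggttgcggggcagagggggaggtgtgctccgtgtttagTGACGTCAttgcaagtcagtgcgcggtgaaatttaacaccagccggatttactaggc
The element begins 7 bases before the start. Among the 43 members with a RefSeq window, Col24a1 was the only one with these letters on either strand, and 1.80% of all 32544 windows held them. A match of letters is a description and not a site.

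The 4 other fibril-forming collagens are best known from cartilage, and their levels per kilobase, 2.81 to 69.4 in KO libraries and 2.25 to 70.6 in control libraries, were lower than those of types I, III and V. Col2a1 averaged 14.4 ± 3.22 normalized counts in KO libraries and 11.5 ± 1.16 in control libraries, and Col11a2 183 ± 26.2 in KO libraries and 179 ± 31.6 in control libraries. Col27a1 had a log2 difference of -0.06 (SE 0.18), and 0.14 without KO 2. Col11a1 had 10.5, 62.6, 11.7 and 15.2 normalized counts in KO 1 to KO 4, against 15.6, 19.3, 25.0 and 19.0 in control 1 to control 4, so that KO 2 lay above every control library and the other 3 KO libraries lay below them all. With all libraries its log2 difference was -0.05, and without KO 2 it was -0.62.

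**Figure D2:**
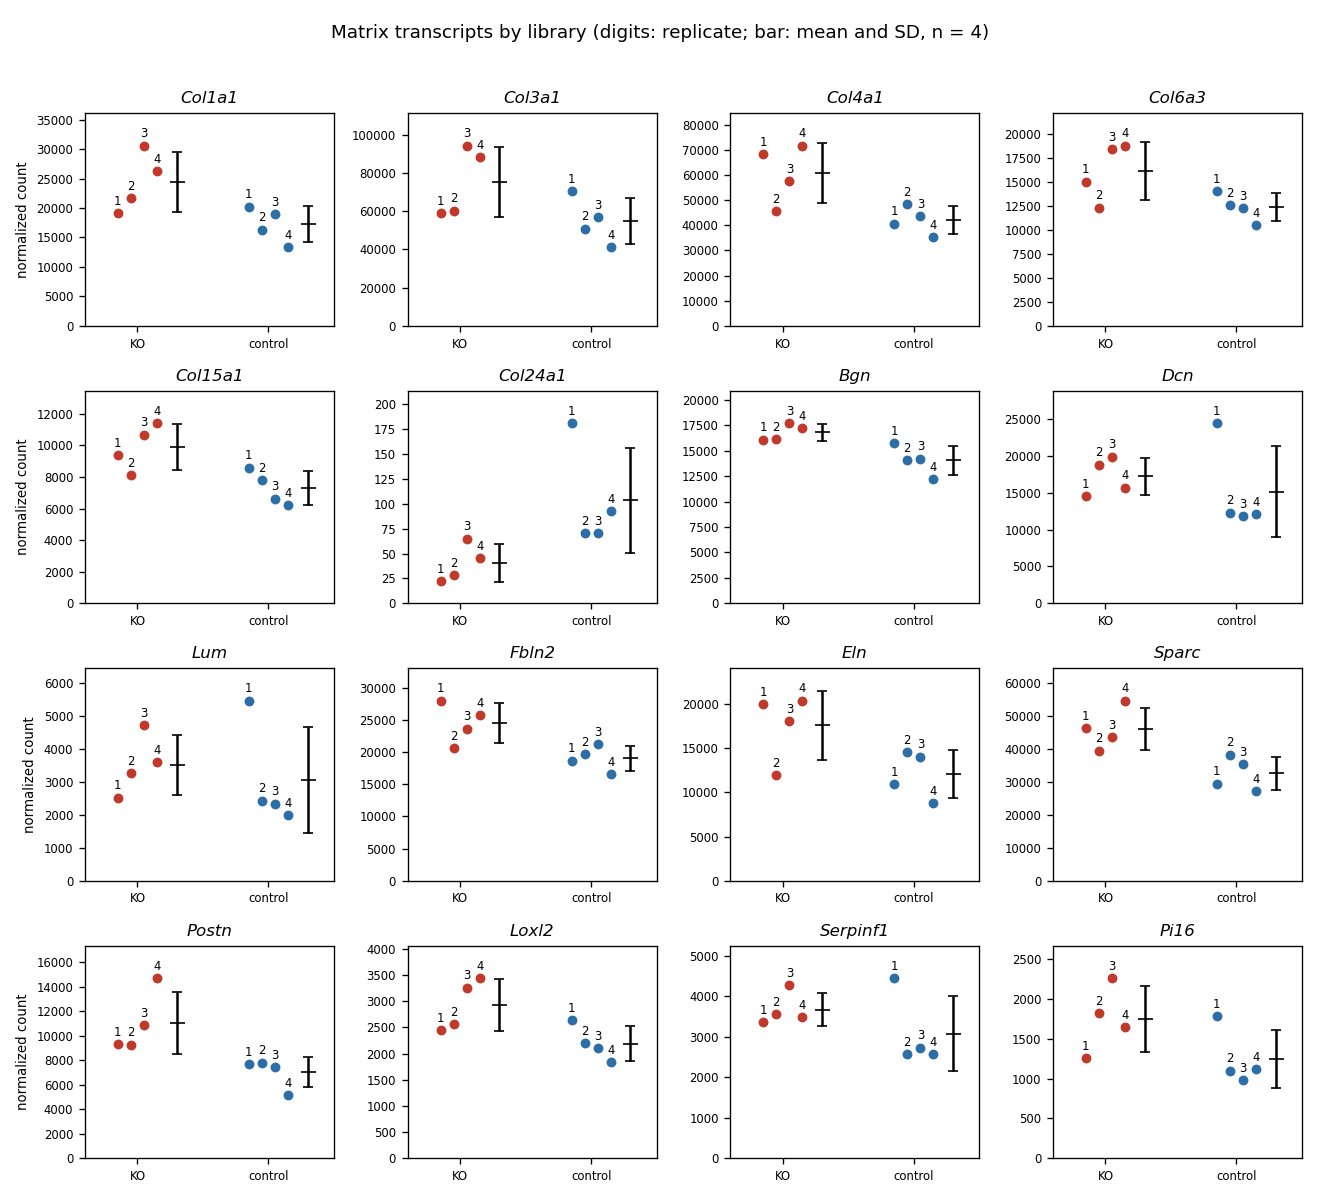
Normalized counts of 16 members in each library, KO left and control right in every panel, with the replicate number above each point and the mean ± SD (n = 4) beside it. Bgn, Postn and Sparc have every KO library above every control library, Col24a1 has every KO library below, and control 1 is far above the other controls for Dcn and Lum.

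The network collagens form the sheet of the basement membrane (type IV) and open nets in vessel walls and the cornea (type VIII). Of the 8 members 6 had a positive and 2 a negative difference, with a median of 0.09, and 0 passed in limma. Col4a1 (chr8:11198423-11312826, minus strand), a chain of the type IV collagen found in nearly all basement membranes, had 68393, 45685, 57703 and 71758 normalized counts in KO 1 to KO 4, against 40695, 48505, 43574 and 35279 in control 1 to control 4. KO 1, KO 3 and KO 4 lay above every control library, and KO 2 lay below control 2. The fitted log2 difference was 0.52 (SE 0.16), 1.44-fold, with an adjusted p of 0.103 in limma, 0.0911 in edgeR and 0.00745 in DESeq2. Without KO 2 the difference was 0.65 and passed in limma (adjusted p = 0.0484).

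Col4a2 (chr8:11312805-11449287, plus strand), its partner chain, had the same order of libraries within each group. It had 49867, 28716, 41634 and 50559 normalized counts in KO 1 to KO 4, against 26802, 36971, 31697 and 25672 in control 1 to control 4. KO 2 lay inside the control range and the other 3 KO libraries lay above it. The log2 difference was 0.48 (SE 0.19, adjusted p = 0.198 in limma and 0.0591 in DESeq2).

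The 2 genes lie head to head on chromosome 8, and their annotated ends share 22 exon bases on opposite strands, so reads from there could be given to either if strand was not used. Their RefSeq promoter windows (GRCm38.p6) are shown because the pair had the same order of libraries within each group: Col4a1 at chr8:11312777-11313076, minus strand, and Col4a2 at chr8:11312555-11312854, plus strand, with the 78 bases that both windows hold, read from opposite strands, in capitals.
Col4a1: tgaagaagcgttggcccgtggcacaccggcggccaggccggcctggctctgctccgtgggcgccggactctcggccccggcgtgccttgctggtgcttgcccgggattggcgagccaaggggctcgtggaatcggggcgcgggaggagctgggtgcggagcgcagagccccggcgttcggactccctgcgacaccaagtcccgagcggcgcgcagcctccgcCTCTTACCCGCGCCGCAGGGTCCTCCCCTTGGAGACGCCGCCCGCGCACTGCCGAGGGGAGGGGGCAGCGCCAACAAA
Col4a2: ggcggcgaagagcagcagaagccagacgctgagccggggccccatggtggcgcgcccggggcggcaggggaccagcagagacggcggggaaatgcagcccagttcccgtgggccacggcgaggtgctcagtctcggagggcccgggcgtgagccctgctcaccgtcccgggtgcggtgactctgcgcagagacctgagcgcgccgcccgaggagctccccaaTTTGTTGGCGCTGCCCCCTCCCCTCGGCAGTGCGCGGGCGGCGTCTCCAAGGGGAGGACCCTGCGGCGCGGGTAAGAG
Each window held GGGCGG, the core of the Sp1-binding GC box, on either strand. So did a window of 26 of the 43 members and 35.9% of all windows. Each also held 1 CCAAT, found for 15 of the 43 members and in 37.4% of all windows. The letters TATAAA were in neither window and were found for 6 of the 43 members (13.6% of all windows). Members are counted by gene, with any window of the gene, and all windows singly, so the shares are not of like units. The log2 ratio of Col4a1 to Col4a2 averaged 0.53 ± 0.10 in KO libraries and 0.48 ± 0.09 in control libraries, a difference of 0.05 with p = 0.514 in the exact permutation test, two-sided, and 0.514 after adjustment. Without KO 2, which had the highest ratio, the difference was -0.000715.

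The other type IV chains belong to the specialised membranes of kidney, lung and smooth muscle. Col4a3 had 73.8, 251, 58.5 and 44.5 normalized counts in KO 1 to KO 4, against 63.8, 70.1, 84.1 and 109 in control 1 to control 4. Col4a4, whose annotated start lies 71 bases from that of Col4a3 on the other strand, had 169, 512, 121 and 62.7 in KO 1 to KO 4, against 145, 174, 210 and 242 in control 1 to control 4. In both genes KO 2 was the highest of all 8 libraries and KO 4 the lowest. Without KO 2 the log2 difference was -0.46 for Col4a3, against 0.06 with it, and -0.79 for Col4a4, against -0.24 with it. Col4a6, which lies head to head with Col4a5 on the X chromosome with 1308 bases between, also peaked in KO 2 with 601 normalized counts, where the other 3 KO libraries had 151 to 330 and the control libraries 250 to 327. With KO 2 its log2 difference was 0.12, and without it -0.20. Col4a5 averaged 1092 ± 260 normalized counts in KO libraries and 1028 ± 211 in control libraries, a log2 difference of 0.08 with KO 2 and -0.04 without it. The log2 differences of the type VIII chains were 0.10 for Col8a1 (SE 0.15) and -0.14 for Col8a2 (SE 0.28). Without KO 2 they were 0.24 and -0.41.

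The beaded-filament group holds the type VI chains, whose microfibrils link cells and basement membranes to the surrounding fibres, together with Col28a1, Col26a1 and Col7a1. Of the 9 members 7 had a positive and 2 a negative difference, with a median of 0.28, and 0 passed in limma. Col6a3 (chr1:90765923-90843971, minus strand), the longest chain of type VI collagen, had 15039, 12322, 18430 and 18810 normalized counts in KO 1 to KO 4, against 14079, 12621, 12268 and 10530 in control 1 to control 4. KO 1, KO 3 and KO 4 lay above every control library, and KO 2 lay within the control range. Its log2 difference was 0.37 (SE 0.14, adjusted p = 0.185 in limma and 0.0681 in DESeq2).

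Col6a2 (chr10:76595762-76623630, minus strand), a short chain of the same trimer, had 19778, 15141, 24867 and 23084 normalized counts in KO 1 to KO 4, against 18450, 16575, 16618 and 14092 in control 1 to control 4. As for Col6a3, KO 2 lay inside the control range and the other 3 KO libraries lay above it. limma gave a log2 difference of 0.32 (SE 0.15, adjusted p = 0.271). Col6a1, 85161 bases from Col6a2 on the same strand, had a log2 difference of 0.28 (SE 0.16), and 0.43 without KO 2. KO 2 was the lowest KO library for all 3 of these chains.

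Col6a4, Col6a5 and Col6a6, relatives of the Col6a3 chain that lie side by side on chromosome 9, overlapped between the groups. Col6a5 had 6425 to 8920 normalized counts in KO libraries and 4516 to 10313 in control libraries, Col6a6 958 to 1478 in KO libraries and 795 to 1462 in control libraries, and Col6a4 30.8 to 65.9 in KO libraries and 34.4 to 44.9 in control libraries. Control 1 held the highest control value of Col6a5 and Col6a6, and without it their log2 differences were 0.46 and 0.39, against 0.22 and 0.21 with it. Col28a1, a related collagen known from peripheral nerve, had a log2 difference of 0.36 (SE 0.21), and 0.22 without control 1. Col7a1, the anchoring-fibril collagen of skin, had -0.19 (SE 0.12) and Col26a1, first known from testis and ovary, -0.13 (SE 0.30), and neither passed.

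The fibril-associated collagens do not form fibrils themselves but sit on the surface of fibrils. All 7 members had a positive difference, with a median of 0.32, and 0 passed in limma. Col20a1 (chr2:180986535-181018363, plus strand) had 197, 159, 193 and 186 normalized counts in KO 1 to KO 4, against 124, 149, 142 and 143 in control 1 to control 4. The groups did not overlap, with KO 2 and control 2 the nearest. On the log2 scale the difference was 0.39 (SE 0.11), 1.31-fold, with an adjusted p of 0.0937 in limma and 0.0447 in DESeq2.

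Col19a1 (chr1:24261890-24587472, minus strand), a basement-membrane-zone collagen, had the largest positive difference of any member and few counts. It had 42.2, 30.8, 24.4 and 48.6 normalized counts in KO 1 to KO 4, against 18, 21.3, 17.1 and 26.0 in control 1 to control 4. Only KO 3 lay inside the control range, below control 4. The fitted log2 difference was 0.77 (SE 0.26), 1.70-fold, with an adjusted p of 0.147 in limma and 0.121 in DESeq2.

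Col14a1 (chr15:55307750-55520803, plus strand), which binds type I fibrils and decorin and is used as a fibroblast marker, was the most abundant of the group. It had 2090, 2844, 3487 and 2942 normalized counts in KO 1 to KO 4, against 3457, 1838, 2301 and 1729 in control 1 to control 4. Control 1 stood level with KO 3, at 1.88 times the median of the other control libraries, and KO 1 lay below control 3. The log2 difference was 0.32 (SE 0.23, adjusted p = 0.465), and without control 1 it was 0.53 (adjusted p = 0.155). Of the rest, Col12a1 had a log2 difference of 0.54 (SE 0.23), Col16a1 0.22 (SE 0.10), Col22a1 0.06 (SE 0.35) and Col9a3 0.05 (SE 0.22).

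The multiplexins Col15a1 and Col18a1 carry sugar chains and lie in basement membranes, and their ends release restin and endostatin. Col15a1 (chr4:47208161-47313167, plus strand) had 9369, 8115, 10683 and 11416 normalized counts in KO 1 to KO 4, against 8602, 7822, 6622 and 6230 in control 1 to control 4. KO 2 lay below control 1, and the other 3 KO libraries lay above every control library. Its log2 difference was 0.43 (SE 0.13), with an adjusted p of 0.107 in limma and 0.0203 in DESeq2.

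Col18a1 (chr10:77052178-77166548, minus strand) had 9163, 6143, 8691 and 8658 normalized counts in KO 1 to KO 4, against 5155, 6797, 6852 and 5611 in control 1 to control 4. KO 2 lay inside the control range, far below the other 3 KO libraries. limma gave a log2 difference of 0.41 (SE 0.14, adjusted p = 0.145 in limma and 0.0405 in DESeq2). Without KO 2 it was 0.54 and passed in limma (adjusted p = 0.0493).

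The transmembrane collagens stay anchored in the cell membrane, and all 4 had low counts. Col13a1 peaked in KO 2 with 120 normalized counts, where the other KO libraries had 32.9 to 56.2 and the control libraries 56.5 to 108. Col23a1 peaked there too with 192, where the other KO libraries had 52.6 to 98.4 and the control libraries 99.9 to 107. Their log2 differences were -0.45 (SE 0.38) and -0.11 (SE 0.33), and without KO 2 they were -0.82 and -0.44. Col25a1 had a log2 difference of 0.54 (SE 0.27), and 0.31 without KO 2, and Col17a1, a hemidesmosome collagen of epithelia, 0.13 (SE 0.30), and 0 of the 4 passed.

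The small leucine-rich proteoglycans bind collagen fibrils and set their spacing. All 3 had a positive difference, with a median of 0.26, and 0 passed in limma. Bgn (chrX:73483602-73495933, plus strand), which encodes biglycan, had 16086, 16114, 17696 and 17219 normalized counts in KO 1 to KO 4, against 15708, 14063, 14207 and 12171 in control 1 to control 4. The groups did not overlap, with KO 1 just above control 1. On the log2 scale the difference was 0.26 (SE 0.08), 1.2-fold, with an adjusted p of 0.111 in limma and 0.0308 in DESeq2.

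Dcn (chr10:97479609-97518143, plus strand), which encodes decorin, a widely used fibroblast marker, had 14521, 18807, 19905 and 15676 normalized counts in KO 1 to KO 4, against 24456, 12318, 11849 and 12066 in control 1 to control 4. Control 1 was the highest of all 8 libraries, and the other 3 control libraries lay below every KO library. The fitted log2 difference was 0.25 (SE 0.23, adjusted p = 0.584), and without control 1 it was 0.50 (adjusted p = 0.0646). Lum, the lumican gene 46984 bases from Dcn on the same strand, had the same form, with 5469 normalized counts in control 1, 1999 to 2429 in the other control libraries and 2520 to 4723 in KO libraries. Lum differed by 0.29 on the log2 scale with all libraries and by 0.61 without control 1.

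The elastic fibre group had a positive difference in all 5 members, with a median of 0.34, and 0 passed in limma. Fbln2 (chr6:91212455-91272540, plus strand), which encodes a fibulin that links elastin to basement membranes, had 27964, 20624, 23616 and 25756 normalized counts in KO 1 to KO 4, against 18659, 19644, 21207 and 16600 in control 1 to control 4. Only KO 2 lay inside the control range, below control 3. The log2 difference was 0.36 (SE 0.11), 1.28-fold, with an adjusted p of 0.106 in limma and 0.0172 in DESeq2.

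Eln (chr5:134702593-134747323, minus strand), which encodes elastin, had 19913, 11950, 17988 and 20335 normalized counts in KO 1 to KO 4, against 10940, 14550, 13996 and 8772 in control 1 to control 4. KO 1, KO 3 and KO 4 lay above every control library and KO 2 lay inside the control range. Its log2 difference was 0.54 (SE 0.21, adjusted p = 0.183 in limma and 0.0546 in DESeq2). Fbn1, the main microfibril protein, averaged 14028 ± 2100 normalized counts in KO libraries and 11071 ± 1714 in control libraries (adjusted p = 0.184). The microfibril-associated Mfap5, a marker of adventitial fibroblasts, had a log2 difference of 0.32 (SE 0.23) and Fbln1 0.17 (SE 0.25), and control 1 was the highest control library for both. Without it the differences were 0.51 and 0.43.

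The enzymes and helpers that process and cross-link fibrils had a positive difference in all 4 members, with a median of 0.39, and 0 passed in limma. Loxl2 (chr14:69609068-69695834, plus strand), a lysyl oxidase that also acts on type IV collagen, had 2454, 2565, 3262 and 3442 normalized counts in KO 1 to KO 4, against 2633, 2194, 2107 and 1836 in control 1 to control 4. Control 1 lay above KO 1 and KO 2, and the other control libraries lay below every KO library. limma gave a log2 difference of 0.41 (SE 0.14), with an adjusted p of 0.134 in limma and 0.0449 in DESeq2.

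Pcolce (chr5:137605103-137613784, minus strand), which speeds the removal of the procollagen end piece, had 3436, 3509, 4140 and 4001 normalized counts in KO 1 to KO 4, against 3793, 2904, 2617 and 2553 in control 1 to control 4. Control 1 lay above KO 1 and KO 2, while the other 3 control libraries lay below every KO library. On the log2 scale the difference was 0.36 (SE 0.13, adjusted p = 0.151), and without control 1 it was 0.48 and passed in limma (adjusted p = 0.0336). Its annotated exons share 112 bases with those of Fbxo24, whose mean was 14.8 normalized counts in KO libraries and 16.2 in control libraries. Lox, the founding lysyl oxidase, had a log2 difference of 0.42 (SE 0.17, adjusted p = 0.198), and without control 1 it was 0.58 (adjusted p = 0.0436). Loxl1, which acts on elastin, had 0.35 (SE 0.22, adjusted p = 0.408), and 0.56 without control 1.

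The collagen-binding group held the members with the lowest p-values, and all 3 had a positive difference, with a median of 0.50. Sparc (chr11:55394500-55423183, minus strand), a calcium-binding protein that chaperones collagen in the matrix, had 46262, 39468, 43622 and 54589 normalized counts in KO 1 to KO 4, against 29470, 38209, 35332 and 27217 in control 1 to control 4. The groups did not overlap, with KO 2 just above control 2. The fitted log2 difference was 0.50 (SE 0.13), 1.42-fold, with an adjusted p of 0.0800 in limma, 0.0787 in edgeR and 0.00472 in DESeq2.

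Postn (chr3:54361109-54391037, plus strand), which encodes periostin, a matricellular protein that brings lysyl oxidase processing to collagen, had 9323, 9285, 10858 and 14701 normalized counts in KO 1 to KO 4, against 7661, 7801, 7433 and 5175 in control 1 to control 4. The groups did not overlap, and the extremes, KO 4 and control 4, stood apart from the rest of their groups. The log2 difference was 0.65 (SE 0.18), 1.57-fold, with an adjusted p of 0.0820 in limma, 0.0834 in edgeR and 0.00478 in DESeq2. Dpt, which encodes dermatopontin, a decorin-binding protein, had a log2 difference of 0.35 (SE 0.21, adjusted p = 0.392), and without control 1 it was 0.58 (adjusted p = 0.0420).

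The 4 fibroblast genes outside the matrix itself all had a positive difference, with a median of 0.30, and 0 passed in limma. Pi16 (chr17:29317680-29330593, plus strand), a marker of adventitial fibroblasts, had 1256, 1819, 2257 and 1645 normalized counts in KO 1 to KO 4, against 1783, 1099, 978 and 1113 in control 1 to control 4. Control 1 lay above KO 1 and KO 4, and the other control libraries lay below every KO library. Its log2 difference was 0.50 (SE 0.22, adjusted p = 0.229).

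Serpinf1 (chr11:75409769-75422701, minus strand), which encodes the secreted factor PEDF, had 3358, 3557, 4274 and 3482 normalized counts in KO 1 to KO 4, against 4445, 2567, 2728 and 2573 in control 1 to control 4. Control 1 was the highest of all 8 libraries and the other 3 control libraries were the lowest. limma gave a log2 difference of 0.29 (SE 0.17, adjusted p = 0.381), and without control 1 it was 0.48 and passed in limma (adjusted p = 0.0353). Pdgfra had a log2 difference of 0.31 (SE 0.21, adjusted p = 0.431) and Fap, a protease of activated fibroblasts, 0.25 (SE 0.23, adjusted p = 0.577). Without control 1 they were 0.52 and 0.46, and neither passed.

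**Figure D3:**
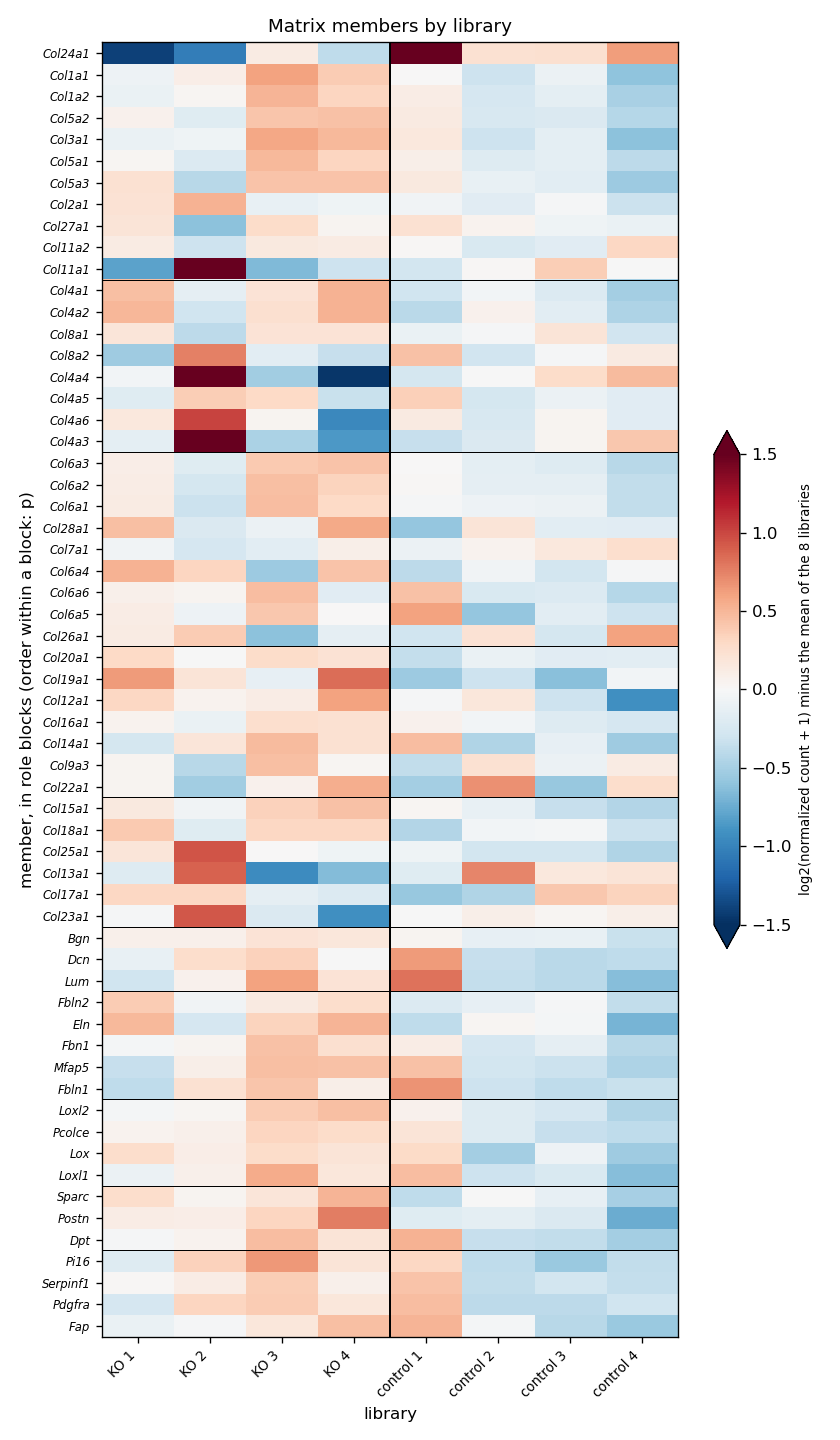
log2(normalized count + 1) of each member (rows, in role blocks) in each library (columns, KO left of control) as the difference from the mean of the 8 libraries, red above and blue below. Control 1 is red for Dcn, Lum, Fbln1 and Pdgfra where the other 3 controls are blue, and KO 2 is red for Col11a1, Col4a3, Col4a4 and Col23a1.

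Control 1 and KO 2 were singled out after the values were seen, and only they were held to the limit below. Other libraries also lay far from the rest of their group for some members, such as KO 4 for Col4a4 and control 4 for Eln. How often a library does so over all genes was not computed. With a limit of 1.5 times the median of the other 3 libraries of its group, chosen after the values were seen, control 1 was high for 15 members, and it was the highest control library for 35 of 60. The 15 were Dcn, Lum, Mfap5, Fbln1, Lox, Loxl1, Dpt, Pi16, Serpinf1, Pdgfra and Fap, together with Col6a5, Col6a6, Col14a1 and Col24a1. The same library lay below the median of the other controls for Col4a1 and Col4a2, at 0.934 and 0.846 times, and for Eln at 0.782 times.

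KO 2 was high by the same limit for 9 members, all of them collagens, the most abundant being Col4a6 with a KO mean of 347. These were Col2a1, Col11a1, Col4a3, Col4a4, Col4a6, Col8a2, Col13a1, Col23a1 and Col25a1, with Col11a1 at 5.36 times, Col4a3 at 4.29 times and Col4a4 at 4.23 times the median of the other KO libraries. It was low, at under 1/1.5 of that median, for 11 members, Eln at 0.600 and Col4a2 at 0.576 times among them. KO 3 was the highest KO library for 28 of 60 members and control 4 the lowest control library for 34 of 60.

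Leaving out control 1 or KO 2 changed which members passed in limma. Without control 1, 4 members passed as higher, Dpt, Lox, Pcolce and Serpinf1 (2.4% of all genes; 0.953% higher in KO), and the median member difference was 0.42. Without KO 2, 2 members passed as higher, Col4a1 and Col18a1 (1.93% of all genes; 0.634% higher in KO). Without both, 0 members passed (0.817% of all genes; 0.336% higher in KO), and the median was 0.47.

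**Figure D4:**
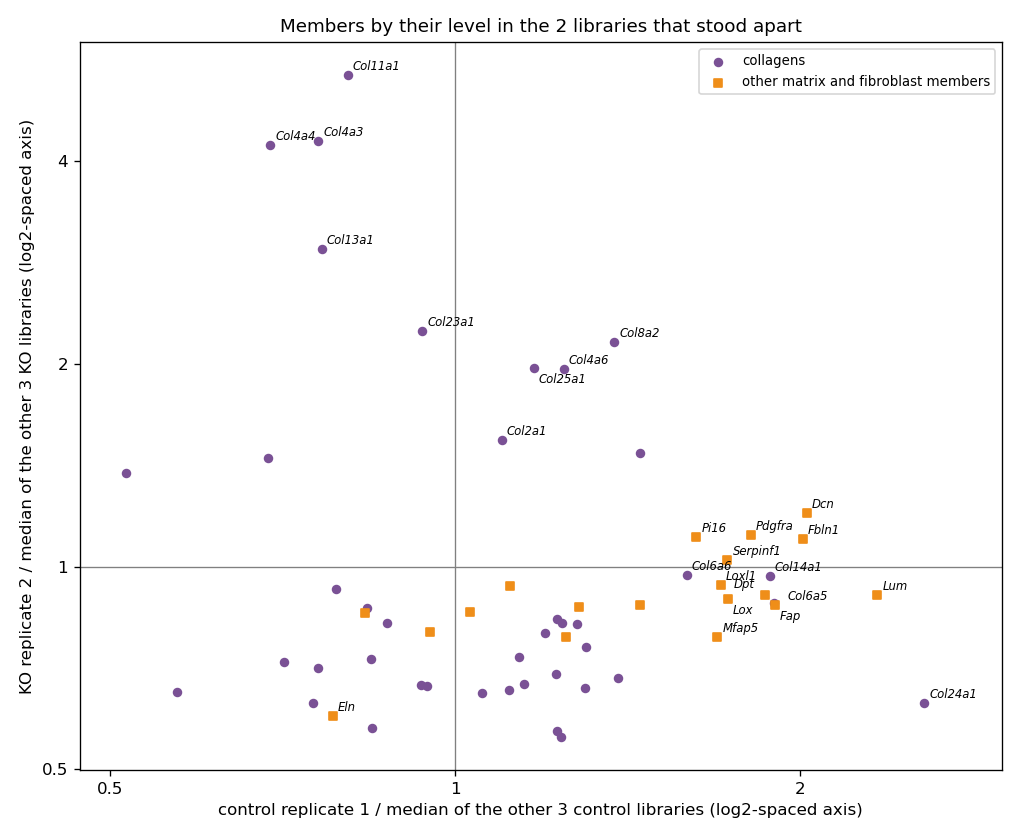
Level of each member in control 1 over the median of the other 3 control libraries (x, log2-spaced) and in KO 2 over the median of the other 3 KO libraries (y, log2-spaced), collagens as circles and other members as squares. Of the 60 members 15, Dcn and Lum among them, lie at 1.5 or above on the x axis, and 9, all collagens, lie there on the y axis.

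Marker lists of the cells that the selection could have carried along were in part higher in KO libraries too, and their part in the result was not tested. Lists were read in the same limma fit, against the 3.61% of all genes that passed. Of the 20 endothelial markers 0 passed, though all 20 had a positive difference, with a median of 0.50. Their summed level was 175729 to 247852 normalized counts in KO libraries and 111538 to 188930 in control libraries, lowest in control 1. The lowest p-values were those of Cyyr1 and the vascular transcription factor Sox18 (log2 differences 0.51 and 0.78), and the most abundant was Vwf, the von Willebrand factor gene (0.40).

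Of the 14 mural markers, which mark pericytes and smooth muscle, 0 passed, with a median of 0.40 and sums of 95134 to 147718 in KO libraries and 61947 to 113645 in control libraries. The lowest p-values were those of Higd1b and Pdgfrb (0.66 and 0.36), and the most abundant was Myh11, smooth muscle myosin (0.24). No endothelial or mural marker was at 1 read or fewer. Of the 28 other fibroblast and preadipocyte markers 2 passed as higher in KO and 0 as lower. A positive difference was found for 26 of the 28, and the list median was 0.29. Thy1, a surface protein of fibroblasts, averaged 784 ± 67.3 normalized counts in KO libraries and 523 ± 25.9 in control libraries (0.58, SE 0.08, adjusted p = 0.00824). Ly6a, the Sca-1 gene of progenitors, averaged 6158 ± 737 in KO libraries and 4285 ± 242 in control libraries (0.52, SE 0.09, adjusted p = 0.0168). Which cells the RNA of these 2 genes came from was not tested.

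The summed level of the fibroblast markers overlapped, at 235702 to 274376 in KO libraries and 238378 to 305900 in control libraries, highest in control 1. A large share of that sum was Lrp1, a receptor that macrophages also express, which averaged 89168 ± 4872 in KO libraries and 115960 ± 6359 in control libraries. Of the 14 adipocyte markers 0 passed, with a median of 0.29, Lep and Plin1 having the lowest p-values and Pnpla2 the highest level. The summed adipocyte level was 14588 to 17083 in KO libraries and 12083 to 15138 in control libraries.

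The 14 mesothelial markers, of the cells that line visceral fat, had 1 that passed as higher in KO, Upk1b, with 46.6 ± 6.67 normalized counts in KO libraries and 21.2 ± 5.63 in control libraries (adjusted p = 0.0328). The list median was 0.59, with 11 of the 14 positive. The mesothelial sums did not overlap, at 4171 to 5961 in KO libraries, highest in KO 2, and 3438 to 3705 in control libraries. Upk3b had the next lowest p (log2 difference 0.93, adjusted p = 0.0667) and Cldn15 the highest level. Of 10 Schwann cell markers 1 passed as lower in KO, the myelin gene Mbp (-0.43, adjusted p = 0.0424), which was also the most abundant, with Cdh19 next by p. The Schwann cell median was 0.08, with 7 of the 10 positive. Of 12 T and B cell markers 0 passed, though all 12 had a positive difference, with a median of 0.56. Lck and Trac had the lowest p-values and Cd79b the highest level. The T and B cell sums were 1422 to 3245 in KO libraries and 1049 to 1979 in control libraries.

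The macrophage list mostly went the other way, with 1 positive difference, that of Mrc1 (0.19, adjusted p = 0.330 in limma). Lists share some genes, and Mrc1 is also counted below with the collagen receptors and with collagen breakdown and uptake. Of 20 markers 7 passed as lower in KO and 0 as higher, Csf1r, Cd68, Itgam, Mpeg1, Msr1, Trem2 and Ptprc, with a list median of -0.32. The sums did not overlap, at 541993 to 590714 in KO libraries and 621363 to 823679 in control libraries. Itgam, the CD11b chain, averaged 14328 ± 767 in KO libraries and 19876 ± 1400 in control libraries (adjusted p = 0.0103). Mpeg1, a pore protein of phagocytes, averaged 38830 ± 4108 in KO libraries and 68389 ± 11621 in control libraries (adjusted p = 0.0156). Lgals3 was the most abundant (-0.23, adjusted p = 0.329). In DESeq2, where 4.66% of all genes passed as higher and 6.23% as lower, 11 macrophage markers passed as lower and 0 as higher. As higher there passed 7 endothelial, 2 mural, 8 fibroblast, 2 adipocyte and 5 mesothelial markers, and as lower 1 fibroblast and 1 Schwann cell marker, with 0 T and B cell markers in either direction.

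**Figure D5:**
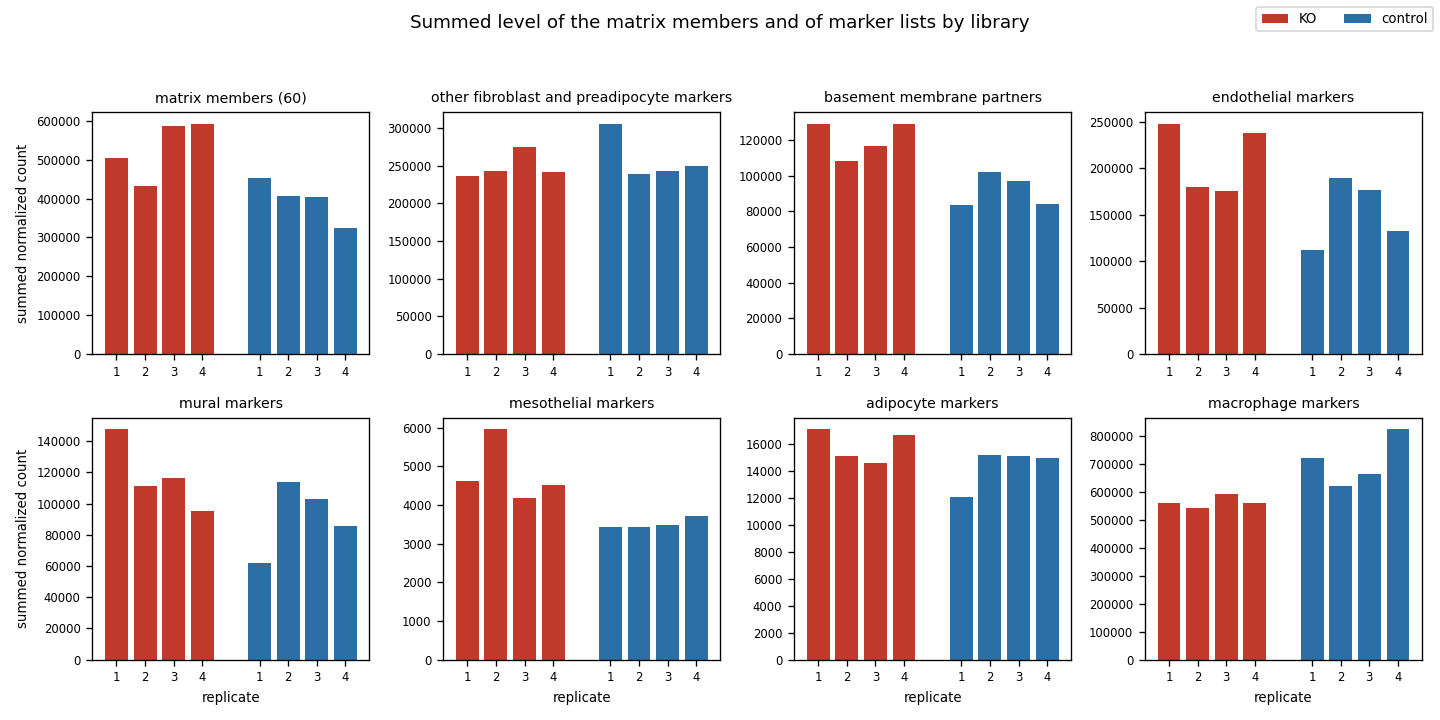
Summed normalized counts of the 60 matrix members and of 7 marker lists in each library, KO left and control right in every panel. Basement membrane and mesothelial sums are higher in every KO library than in any control library, and macrophage sums are lower. The matrix, fibroblast, endothelial, mural and adipocyte sums overlap, with KO 2 below control 1 for the matrix.

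Genes that act on the matrix members were read in the same way. Of the 18 basement membrane partners, laminins, nidogens and others that bind type IV collagen, 1 passed as higher in KO and 0 as lower, with a median of 0.36. Lama4, the laminin chain of vessels, averaged 3994 ± 203 in KO libraries and 3134 ± 239 in control libraries (0.35, SE 0.07, adjusted p = 0.0263). Nid1, the nidogen that joins laminin to type IV collagen, followed (0.43, adjusted p = 0.0510), and Hspg2, perlecan, was the most abundant (0.45, adjusted p = 0.0632). The summed level was 108516 to 129380 in KO libraries and 83545 to 101978 in control libraries, without overlap.

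Of 29 genes of collagen synthesis and processing 1 passed as higher in KO and 0 as lower, with a median of 0.20. P4ha2, a prolyl hydroxylase that stabilises the collagen helix, averaged 831 ± 49.8 in KO libraries and 608 ± 42.0 in control libraries (0.45, SE 0.07, adjusted p = 0.0166). Creb3l1, a transcription factor that raises collagen secretion, followed (0.45, adjusted p = 0.0571), and the most abundant was Sparcl1, a relative of Sparc (0.32, adjusted p = 0.146). Of 15 collagen receptors and related adhesion receptors 3 passed as higher and 0 as lower. They were Itga10, an integrin chain that binds collagen, Itgb3, the integrin beta3 chain, and Adgrg1, a receptor of type III collagen. Their log2 differences were 0.56, 0.42 and 0.59, with adjusted p-values of 0.0249, 0.0307 and 0.0491. Mrc1, the mannose receptor, which also takes up collagen, was the most abundant (0.19, adjusted p = 0.330).

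Of 17 genes of collagen breakdown and uptake 1 passed as higher in KO and 2 as lower, with a median of 0.18. Mmp13, a collagenase, had 545, 633, 667 and 685 normalized counts in KO 1 to KO 4, against 285, 241, 350 and 262 in control 1 to control 4 (1.16, SE 0.13, adjusted p = 0.00367). Ctsk, the lysosomal collagen-degrading protease cathepsin K, had 4227, 5347, 5445 and 5473 in KO 1 to KO 4, against 28342, 25524, 21915 and 15751 in control 1 to control 4 (-2.13, SE 0.17, adjusted p = 0.00104). Ctss, a lysosomal protease of antigen-presenting cells, also fell (-0.55, SE 0.12, adjusted p = 0.0453), and Ctsb was the most abundant (-0.33, adjusted p = 0.182). For Mmp13 and Ctsk no KO library reached the range of the control libraries. Of 38 other matrix glycoproteins and proteoglycans 2 passed as higher and 0 as lower, Ltbp2, a microfibril protein (0.53, adjusted p = 0.0146), and Thbs2, a thrombospondin of fibroblasts (0.52, adjusted p = 0.0451). The most abundant of these, Fn1, fibronectin, averaged 31110 ± 3084 in KO libraries and 36236 ± 7843 in control libraries (adjusted p = 0.522). In DESeq2 the counts higher and lower in KO were 7 and 0 for basement membrane partners, 7 and 1 for synthesis and processing, 5 and 2 for receptors, 3 and 3 for breakdown and uptake, and 8 and 2 for the other matrix genes.

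The clusters that the KO mice lack in myeloid cells encode the miR-23, miR-24 and miR-27 families, which lower the RNAs that they pair with through their seed, bases 2 to 8. Their mature sequences from RefSeq (GRCm38.p6) are shown with the seed in capitals because the search of the members for sites used it.
miR-23a-3p: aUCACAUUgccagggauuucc
miR-24-3p: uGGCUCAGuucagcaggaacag
miR-27a-3p: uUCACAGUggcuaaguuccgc
miR-27b-3p: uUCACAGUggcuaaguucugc
The miR-27 pair shares 1 seed, and miR-23b-3p is named only. Positions are chr8:84208563-84208583 for miR-23a-3p, chr8:84208727-84208747 for miR-27a-3p and chr13:63300760-63300780 for miR-27b-3p, all on the plus strand. The gene pair of miR-24-3p lies at chr8:84208875-84208896 and chr13:63301251-63301272, also on the plus strand.

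The 8-base site of a family is the match to its seed followed by A, searched on the sense strand of the annotated 3′ UTR (GENCODE M21) of 59 members and 14692 tested genes. The miR-23 site AATGTGAA was in 3 members (5.08%; 6.94% of all genes), the miR-24 site CTGAGCCA in 4 (6.78%; 8.26%) and the miR-27 site ACTGTGAA in 3 (5.08%; 6.19%). Any of them was in 9 members, or 15.3%, where 18.9% of all genes had one. The 9 were Col4a1, Col4a4 and Sparc for miR-23, Col11a2, Lox, Pi16 and Pdgfra for miR-24, and Col23a1, Col27a1 and, again, Lox for miR-27. The median log2 difference was 0.31 for members with any site and 0.32 for members without one. By family it was 0.50 for the 3 members with a miR-23 site, 0.37 for the 4 with a miR-24 site and -0.06 for the 3 with a miR-27 site. Shorter matches were not searched, so members with only those count as without a site. With so few members these medians are a description and no test. The sites of Col4a1 and Sparc, both among the members that DESeq2 called, and the first of 3 in Pi16, the member with most sites, are shown with 11 bases on either side and the site in capitals. They begin at base 792 of 1378 of the 3′ UTR in Col4a1, 1031 of 1085 in Sparc and 526 of 2106 in Pi16.
Col4a1: tcaggccactgAATGTGAAacaccagcttt
Sparc: actctcacagcAATGTGAAgagcttgacaa
Pi16: cctccaactctCTGAGCCAtcccattcctt
The letters are a description, and binding was not measured here.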

How the data were processed

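Poly(A) RNA of F4/80-selected adipose tissue macrophages was sequenced in 4 KO and 4 control libraries. Per the submitters' processing notes, FastQC, cutadapt, Salmon, DESeq2 and mm10 were used, with versions and roles not given in the sources used here, nor whether counting used strand. The deposited normalized counts are a signal: gene counts that the authors divided by 1 size factor per library, per the file headers and the values. The authors' second table gives the mean signal, the log2 fold change (control over KO), scores (its SE and test statistic) and p-values, per the file headers.

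The main test was limma 3.58.1 (R 4.3.3, eBayes with trend, two-sided) on log2(normalized count + 1) for the 15862 of 15867 genes with a mean of at least 10, with Benjamini-Hochberg adjustment over all of them and a threshold of 0.05. Adding 1 shrinks the fold of low genes. Whole reads were recovered to within 0.01 for 100% of values. In control 4 the step was 0.998, so near 1 that rounding and scaling look alike in low values. These reads were used for depth and as alternatives with edgeR 4.0.16 and DESeq2 1.42.0, which called 556 and 1557 genes, and limma called 573. Ratios were compared by exact permutation. The scripts were tested on simulated data. Positions are from GENCODE M21 (GRCm38, the sequence of mm10), promoter windows and microRNAs from RefSeq GRCm38.p6, and 3′ UTRs and lengths from the principal coding transcript. Symbols that a spreadsheet had turned into dates (21) hold no member.

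Members and lists were chosen with earlier results of these data known. Every member is named, and in each of 10 roles the 2 with the lowest p and the most abundant have values for all libraries, as would any member passing the threshold. In each of 13 lists the 2 with the lowest p and the most abundant are named, with any that passed and were singled out after their values were seen. Other members with values by library were also chosen after seeing them. Alternatives were pseudocounts of 0.5 and 5, no filter and a minimum mean of 50, total and quantile scaling, eBayes without trend, a replicate block, leaving out each library, and, added after seeing the data, leaving out control 1 and KO 2 together. Intervals of single values were not computed, since replicates give the spread.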

Additional observations from a re-analysis of the deposited data

Results flagged for a closer look

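In 124 groups of 4 libraries (60 members and both ratios in each group), 14 had a library far from the other 3, where chance gives about 1 in 20. Control 1 was the highest of its group in 8 of them, with 24456 normalized counts of Dcn (11849 to 12318 in the other control libraries), 5469 of Lum (1999 to 2429), 2010 of Mfap5 (1076 to 1227), 2626 of Fbln1 (1263 to 1332), 6608 of Dpt (3233 to 3619), 1783 of Pi16 (978 to 1113), 4445 of Serpinf1 (2567 to 2728) and 3833 of Pdgfra (2114 to 2251). Control 4 was the lowest for Postn with 5175 (7433 to 7801). KO 2 was the highest of its group for Col11a1 with 62.6 (10.5 to 15.2 in the other KO libraries) and for Col4a3 with 251 (44.5 to 73.8). It was the lowest for Col11a2 with 144 (195 to 198), for Col8a1 with 1018 (1505 to 1538) and for Col18a1 with 6143 (8658 to 9163).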

How the results depend on the processing

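The count of members called was 0 in limma and under other pseudocounts, filters, scalings, without trend and in edgeR. DESeq2 on recovered reads called 11, of them 10 higher and 1 lower in KO. Leaving out 1 library gave 0 to 4 called, all higher: 4 without control 1 and 2 without KO 2, and 0 otherwise. The lower count was 0 in each. The median member difference ranged over 0.22 to 0.42 when 1 library was left out, and was 0.47 without control 1 and KO 2 together. The log2 ratio difference ranged over 0.10 to 0.15 for Col1a1 to Col1a2 and over -0.000715 to 0.0889 for Col4a1 to Col4a2. For the former, leaving out control 3 gave exact p = 0.0286, the smallest that the test can give there. Of 417 alternative values for the 22 members with values by library under the naming rule, 402 kept direction and side of the threshold and 15 passed where the main value did not. Over all genes limma called 573, DESeq2 1557, eBayes without trend 292 and leaving out 1 library 163 to 502. Same-numbered libraries had correlations of deviations of -0.29 to -0.04 and so showed no positive link. Whether the numbers pair samples is not given in the labels. With the replicate block 0 members and 7 genes in all passed, and the median stayed 0.32. The ratio differences stayed 0.11 (exact p = 0.125) and 0.05 (exact p = 0.625). With same-numbered libraries paired, 0.125 is the smallest p that the exact test can give. It therefore cannot show whether pairing weakened the ratio difference. Why values moved between settings was not tested. Low counts limit the 12 members with a mean under 100.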
